A study of Homo sapiens with 4 samples.

Results

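The chromosome 19 microRNA cluster (C19MC) was described here through the reads that fell on its precursor hairpins in naïve human embryonic stem cells. The members were all genes of GENCODE biotype miRNA on chromosome 19 between bases 53650000 and 53800000 of hg38, matched by Ensembl ID to the gene counts. There were 50 such genes, all present among the 1877 miRNA genes and 60564 genes counted. By symbol and position they formed 2 blocks, 46 hairpins of C19MC proper and 4 of the neighbouring miR-371 to miR-373 block. The cells were Elf1, an established naïve embryonic stem cell line derived from an 8-cell embryo. In the 2-D group the cells grew adherent on coated plates. In the 3-D group they were encapsulated in PEG-8-SH/PEG-8-Acr polymer scaffolds for 21 days. The study's methods describe upkeep on mouse feeder cells, with a move to Matrigel before encapsulation. They do not say which of these the sequenced 2-D cultures had. Both groups were kept in expansion medium for embryonic stem cells and held 2 libraries each, with no introduced mutation stated. The study reports the same medium for both, supplemented with FGF2, LIF, CHIR99021 and PD03296501. The study's methods call the 2 libraries of a group independent biological replicates. All came from 1 line, and the time of the 2-D culture was not given in the sources used here.

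MicroRNAs are short regulatory RNAs cut from hairpins within longer primary transcripts. The nuclear enzyme DROSHA, with its partner DGCR8, releases the hairpin, DICER1 then trims it to the mature strands, and the seed, bases 2 to 8 of the mature strand, pairs with target mRNAs. C19MC is a primate-specific cluster, transcribed from the paternal allele as a long RNA whose introns hold the hairpins, and it is known for its activity in the placenta and in naïve pluripotent stem cells. The miR-371 to miR-373 block lies downstream of it and is known from pluripotent cells. The libraries held ribosomal RNA-depleted total RNA sequenced in 150 base paired reads, so a count on a hairpin stands for a fragment of precursor RNA that overlaps it and not for the mature microRNA.

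Sequences were available from RefSeq (GRCh38.p14) for 47 of the 50 hairpins and for at least 1 mature strand of 49. The first set is shown because it relates the cluster to other stem cell microRNAs. The 7 hairpins MIR520A, MIR520B, MIR520C, MIR520D, MIR520E, MIR372 and MIR373 carry the seed AAGUGCU, which is also that of the miR-302 family on chromosome 4. The seed AAAGUGC of MIR519D and MIR526B is also that of miR-17-5p and 5 other mature microRNAs outside the window. The seed is in capitals.
hsa-miR-520a-3p: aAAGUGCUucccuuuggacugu
hsa-miR-520e-3p: aAAGUGCUuccuuuuugaggg
hsa-miR-372-3p: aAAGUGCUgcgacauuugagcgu
hsa-miR-373-3p: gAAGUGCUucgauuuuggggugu
hsa-miR-302a-3p: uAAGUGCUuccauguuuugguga
hsa-miR-526b-3p: gAAAGUGCuuccuuuuagaggc
hsa-miR-519d-3p: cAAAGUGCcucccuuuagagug
hsa-miR-17-5p: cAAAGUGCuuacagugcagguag

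The second set gives mature strands of the other large seed groups and of the hairpin with the most counts, MIR521-2. The seed UCUAGAG was shared by 11 hairpins, AAAGCGC by 6, and AAGUGCA by 4. In all, the members held 39 different seeds among 62 different mature sequences.
hsa-miR-519a-5p: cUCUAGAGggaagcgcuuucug
hsa-miR-518b: cAAAGCGCuccccuuuagaggu
hsa-miR-519a-3p: aAAGUGCAuccuuuuagagugu
hsa-miR-521: aACGCACUucccuuuagagugu

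The precursor hairpins are shown for 3 loci described below, with the mature strands in capitals. These were MIR526B at chr19:53694393-53694475, MIR519D at chr19:53713347-53713434 and MIR521-2 at chr19:53716594-53716680, all on the plus strand of GRCh38.p14.
MIR526B: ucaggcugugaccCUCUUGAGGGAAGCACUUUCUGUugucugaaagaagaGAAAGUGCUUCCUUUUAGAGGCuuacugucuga
MIR519D: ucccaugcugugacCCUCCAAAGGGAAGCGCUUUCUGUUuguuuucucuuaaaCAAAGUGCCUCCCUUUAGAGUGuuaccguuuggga
MIR521-2: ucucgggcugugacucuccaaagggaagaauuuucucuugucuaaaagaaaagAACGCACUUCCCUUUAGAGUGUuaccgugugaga

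The 46 C19MC hairpins were all on the plus strand spanned 95.8 kb, chr19:53666679-53762430, with lengths of 61 to 124 bases and a median gap of 1.89 kb between neighbours. All of them lay within the bounds of the long non-coding RNA gene ENSG00000269842, chr19:53648055-53764199 of hg38. In GENCODE 44, 44 of the 46 were outside annotated exons, so intronic, and MIR1283-1 and MIR519A2 were in an exon of that gene. The miR-371 to miR-373 block followed after a gap of 25.2 kb, at chr19:53787675-53788773, with MIR371B on the minus strand opposite MIR371A. A search of the genome for copies of each hairpin with 150 flanking bases, at 98% identity or more over at least 80% of the length, found near-identical copies only for MIR512-1 and MIR512-2, which matched each other. Their values are therefore uncertain. Shorter shared stretches were not searched, and MIR515-1 and MIR515-2 have the same hairpin sequence of 83 bases. How far reads on such loci can be told apart is not known.

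The start of the host transcript is shown because all C19MC hairpins lie downstream of it. RefSeq places the start of LOC107985342 at the 5′ end of ENSG00000269842, 18.6 kb before the first hairpin. The 300 bases around it, 250 before and 50 after the start, are chr19:53647798-53648097 of GRCh38.p14, plus strand, with every CG dinucleotide in capitals (the same letters read on both strands).
LOC107985342 promoter: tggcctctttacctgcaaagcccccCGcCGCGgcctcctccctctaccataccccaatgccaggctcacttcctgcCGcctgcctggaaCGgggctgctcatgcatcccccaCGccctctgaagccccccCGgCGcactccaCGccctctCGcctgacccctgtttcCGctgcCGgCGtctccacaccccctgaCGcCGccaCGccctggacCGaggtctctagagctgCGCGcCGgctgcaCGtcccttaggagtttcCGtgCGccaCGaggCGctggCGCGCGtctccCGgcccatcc

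This window held 29 CG dinucleotides at a GC content of 70.7%, against medians of 14 and 58.7% over 35116 promoters of the same length, and 24.2% of those promoters held as many. No methylation was measured in these libraries.

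The libraries held 33833778 and 30114220 counts in 2-D and 21154409 and 18276147 counts in 3-D. Levels below are CPM, counts scaled to a common library total by TMM, which corrects the totals for composition. All 8 core pluripotency markers passed the count filter, with summed levels of 5104 and 5074 CPM in 2-D and 5351 and 5212 CPM in 3-D. Of the 14 naïve markers 10 passed it, and the 14 summed to 149 and 153 CPM in 2-D and 161 and 159 CPM in 3-D. The naïve factor KLF17 had 16 and 29 counts in 2-D and 22 and 16 in 3-D. These counts are not scaled to the lower totals of 3-D, so they give no direction between the groups. HORMAD1 and ZNF729 were at 0 in all libraries. Of 9 markers of the primed state, the later state of pluripotency, 7 had a positive log2 fold change and 3 were called higher in 3-D by edgeR, with a median of 0.21 on the log2 scale. These were SFRP2 (0.28), THY1 (0.22) and SALL2 (0.21), and their part in the C19MC values below was not tested. Of the 8 core markers, 6 rose and 2 fell (median 0.06), with 1 called higher in 3-D. Of the 10 naïve markers tested, 5 rose and 5 fell (median 0.03), with 1 called higher. Of 8 germ layer markers tested, 6 rose and 2 fell (median 0.18), with 0 called. No marker in these lists was called lower. Over all genes tested, 4.54% were called higher in 3-D and 3.36% lower. As C19MC is known from the placenta, 20 trophoblast markers were read too. Their summed level was 106 and 110 CPM in 2-D and 114 and 110 CPM in 3-D, and CGA and VGLL1 were at 0 throughout. Of the 12 trophoblast genes tested, 0 were called at an adjusted p below 0.05 by edgeR's quasi-likelihood test, and 1 had an unadjusted p below 0.05.

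Reads fell on nearly every hairpin of the cluster in both culture conditions. In 2-D, 48 and 47 of the 50 members had at least 1 count, and in 3-D 44 and 41 did, with fewer reads sequenced. MIR519A2 and MIR371B had 0 counts in every library. A 0 allows up to 3 counts only where reads on the locus can be counted, which is not known for these 2. Both hairpins lie wholly in an exon of a long non-coding RNA on the same strand, as do 4 members in all, and the other 2, MIR1283-1 and MIR373, had 57 and 8 counts. Among all miRNA genes, 20 of 270 in such a position had a count (7.41%), against 809 of 1465 outside exons (55.2%) and 76 of 128 opposite an exon (59.4%). Of the 50 members 33 had 20 or more counts over the 4 libraries, and 7 had under 10.

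The summed signal of C19MC was lower in 3-D. The 46 hairpins together held 543 and 488 counts in 2-D and 188 and 176 counts in 3-D. After scaling this was 15.8 CPM in both 2-D libraries, against 9.15 and 9.82 CPM in 3-D. The groups did not overlap. The mean was 15.8 ± 0.0488 CPM in 2-D and 9.48 ± 0.474 CPM in 3-D (SD, n = 2), a log2 ratio of -0.74. On pooled counts the ratio of 3-D to 2-D was 0.599, with an exact (Clopper-Pearson) 95% interval of 0.530 to 0.675 that covers counting error only. No p is given for the sum, and with 2 libraries against 2 an exact two-sided permutation test cannot go below 0.333. In bulk RNA, fewer cells with an active cluster and less precursor RNA per cell cannot be told apart.

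**Figure D1:**
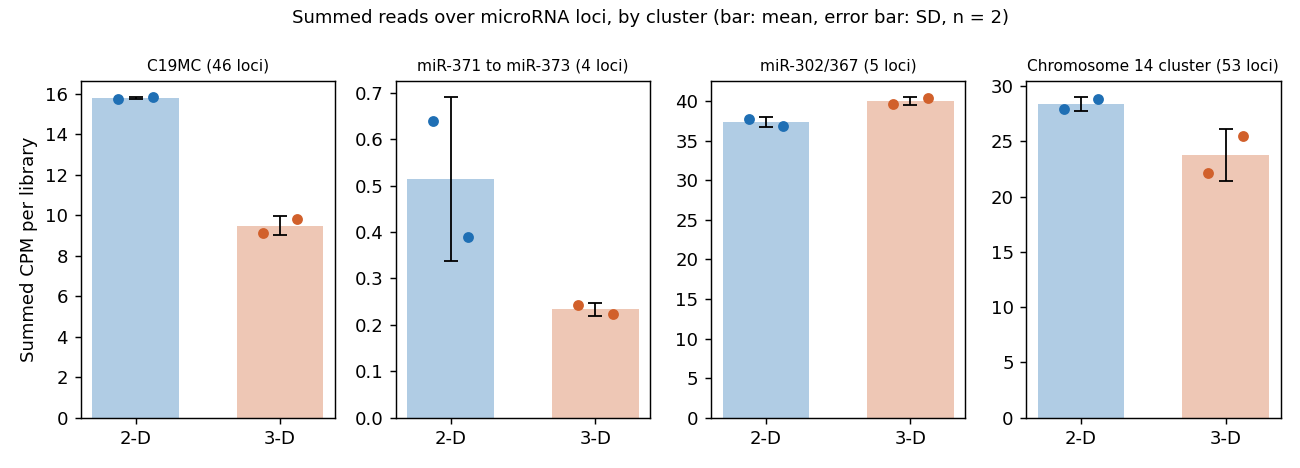
Summed CPM per library over the hairpins of 4 microRNA clusters in 2-D and 3-D culture (points: libraries, bars: means, error bars: SD, n = 2, each panel with its own axis from 0). C19MC stood at 15.8 CPM in both 2-D libraries and at 9.15 and 9.82 CPM in 3-D, while the hairpins of the miR-302 cluster stood at 36.9 to 37.8 CPM in 2-D and 39.7 to 40.4 CPM in 3-D.

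The lower sum did not rest on a single hairpin. Without MIR521-2, the hairpin with the most counts, the log2 ratio was -0.76, and without MIR512-1 and MIR512-2 it was -0.71. Of all 50 members, 33 had both 2-D libraries above both 3-D libraries, and 3 (MIR525, MIR518D and MIR520H) the reverse. The first pattern held for 25.1% of all tested genes, for 21.6% of genes with at least 1 count and for 22.0% of 822 other miRNA genes with no more counts than the highest member. The reverse held for 25.4%, 18.4% and 9.98% of the same sets. Of the 48 detected members the mean was lower in 3-D for 40 (83.3%) and higher for 8. A lower mean was seen in 80.4% of the detected loci of the chromosome 14 microRNA cluster, in 62.4% of those 822 miRNA genes and in 49.9% of all genes tested, so the share is close to that of the chromosome 14 cluster.

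Along the cluster the level was uneven and declined toward the 3′ end. Per kilobase of hairpin, the first 16 hairpins stood at 4.92 CPM in 2-D and 2.68 CPM in 3-D. The next 15 stood at 5.11 and 3.04 CPM per kb, and the last 15 at 1.93 and 1.47 CPM per kb. Reads of 150 bases are longer than the hairpins, so overlap need not scale with hairpin length and these levels are approximate. The last 15 include MIR519A2, which had 0 counts and lies in an exon. Across the 46 hairpins, which share libraries and a host transcript, Spearman's rho between position and mean CPM per kb was -0.48 and Pearson's r was -0.41, given as a description. The order of the hairpins by mean CPM was in part shared between conditions, with a rho of 0.68 between 2-D and 3-D, 0.79 between the 2-D libraries and 0.68 between the 3-D libraries.

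**Figure D2:**
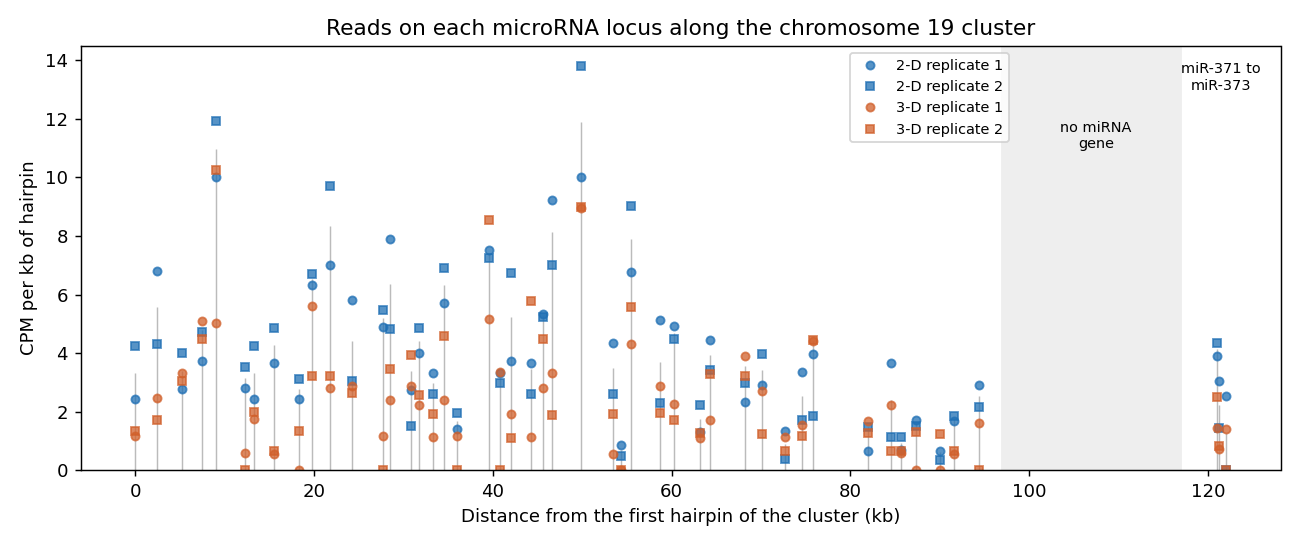
CPM per kb of hairpin in each library against the distance from the first hairpin in kb (circles: replicate 1, squares: replicate 2, blue: 2-D, orange: 3-D), with grey lines up to the higher group mean and the 2 loci without counts left out. The last 15 hairpins stood at 1.93 CPM per kb in 2-D, below the 4.92 and 5.11 CPM per kb of the 2 groups before them.

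The ratio between conditions was lower than 1 in each of these position groups. It was 0.545 on pooled counts for the first 16 hairpins (exact 95% interval 0.449 to 0.659) and 0.591 for the next 15 (0.486 to 0.716). For the last 15 it was 0.762 (0.572 to 1.006), an interval that holds 1 and overlaps the others. Over the 32 C19MC hairpins with 20 or more counts, the rho between position and log2 ratio was 0.16.

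**Figure D3:**
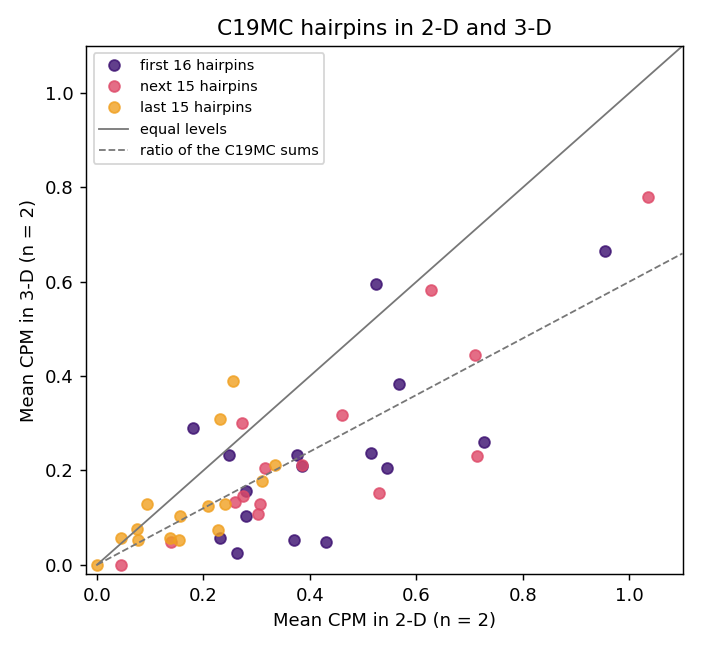
Mean CPM in 3-D against mean CPM in 2-D (n = 2 each) for the 46 C19MC hairpins, coloured by position, with the line of equal levels and a dashed line at the ratio of the C19MC sums. The mean was lower in 3-D for 37 hairpins and higher for 8, and 1 had no count.

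Most groups of hairpins that share bases 2 to 8 had a lower mean in 3-D, as the whole cluster did. A hairpin can enter 2 groups, since both its strands carry a seed. The 7 hairpins with the seed of the miR-302 family had a mean sum of 2.53 CPM in 2-D and 1.47 CPM in 3-D, a ratio of 0.579. The 11 hairpins with UCUAGAG, MIR519B and MIR526A1 among them, stood at 3.61 and 2.41 CPM, a ratio of 0.668. MIR519D and MIR526B, with the miR-17 seed, stood at 1.22 and 1.07 CPM in the 2-D libraries and at 0.389 and 0.167 CPM in the 3-D libraries, a ratio of means of 0.243. Without 3-D replicate 1 this ratio was 0.146. MIR524 and MIR525, with the seed AAGGCGC, had a higher mean in 3-D, at 0.552 and 0.357 CPM in 2-D and 0.341 and 0.837 CPM in 3-D. The groups overlapped, and the ratio of 1.30 was 0.750 without 3-D replicate 2, so its direction rests on 1 library. None of these sums was tested, and they reuse the counts of the single hairpins, so they are not separate results.

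Single hairpins held few counts, so few could be tested. The count filter passed 12 of the 50 members, all in C19MC, and none of the miR-371 to miR-373 block. A hairpin could pass through its 2-D level alone, so the number that moved among these 12 supports nothing about the other 38. In the edgeR quasi-likelihood fit, with p-values adjusted by Benjamini-Hochberg over 22555 genes, 1 member was called lower in 3-D and 0 higher. Over all genes tested, 3.36% were called lower and 4.54% higher, 7.9% in either direction. Of the 12, 4 had an unadjusted p below 0.05, against 21.3% of all genes. With a filter of at least 10 counts in every library 2 members were left, at a median log2 fold change of -0.11.

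MIR526B was the member called. It had 14 and 14 counts in 2-D and 2 and 0 counts in 3-D, where the 0 allows up to 3 counts, or 0.407 and 0.454 CPM against 0.0973 and 0 CPM. Both 3-D libraries were below both 2-D libraries. The pooled ratio was 0.121 (exact 95% interval 0.0140 to 0.480), and the edgeR fit gave a log2 fold change of -2.94 ± 0.81 (SE), a value that depends on the prior count, with an adjusted p of 0.0456. The call rests on single libraries. Without 3-D replicate 2 the edgeR adjusted p was 0.220, and without either 2-D replicate the hairpin did not pass the filter. Over the alternatives that gave one, its adjusted p ran from 0.00579 to 0.220 in edgeR fits, and DESeq2 gave none. Its 3-p strand, printed above, has the seed of miR-17-5p.

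MIR519D, which shares that seed, had 28 and 19 counts in 2-D and 6 and 3 counts in 3-D. The log2 fold change was -1.60 ± 0.48 (SE, edgeR adjusted p = 0.0610), and the adjusted p ran from 0.0183 to 0.422 over the alternatives. MIR1283-1, one of a pair of loci for miR-1283, had 21 and 26 counts in 2-D and 5 and 5 counts in 3-D. Its log2 fold change was -1.46 ± 0.46 (SE, edgeR adjusted p = 0.0754), and the adjusted p ran from 0.0339 to 0.482 over the alternatives. In both hairpins the 2 groups did not overlap, and neither passed the threshold. Without the filter on low counts edgeR gave adjusted p-values for 48 members and called 4 of them lower, where 2.67% of 42231 genes were called lower. These were MIR526B, MIR519D, MIR1283-1 and MIR520F. MIR520F had 11 and 13 counts in 2-D and 1 and 1 counts in 3-D. The edgeR likelihood ratio test called 3 of the 12 lower (2.16% of all genes), and scaling by library size alone called 2 (8.33% of all genes).

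The 2 hairpins with the most counts were not called. MIR521-2, which gives the miR-521 strand printed above, had 30 and 37 counts in 2-D and 16 and 14 counts in 3-D, with a log2 fold change of -0.40 ± 0.32 (SE, edgeR adjusted p = 0.547). MIR520E, with the miR-302 seed, had 30 and 32 counts in 2-D and 9 and 16 counts in 3-D, with a log2 fold change of -0.54 ± 0.37 (SE, edgeR adjusted p = 0.459). In CPM, MIR521-2 stood at 0.871 and 1.20 in 2-D and at 0.778 and 0.781 in 3-D, without overlap. For MIR520E the groups overlapped, with 0.871 and 1.04 CPM in 2-D and 0.438 and 0.893 CPM in 3-D. Per kilobase these 2 hairpins had the highest mean levels of the cluster, at 10.4 and 9.31 CPM per kb, and did not differ from each other beyond the spread between libraries.

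MIR526A1 had 22 and 19 counts in 2-D and 9 and 13 counts in 3-D, with 3-D replicate 2 the highest of the 4 libraries at 0.725 CPM. Its log2 fold change was -0.13 ± 0.39 (SE), and without 3-D replicate 1 it was 0.21, so its direction rests on 1 library. MIR520G had 21 and 25 counts in 2-D and 8 and 9 counts in 3-D, at 0.610 and 0.811 against 0.389 and 0.502 CPM, without overlap. MIR498, a hairpin near the 5′ end, had 16 and 18 counts in 2-D and 13 and 10 counts in 3-D, at 0.465 and 0.584 against 0.633 and 0.558 CPM. It was the only one of the 12 with a positive log2 fold change, 0.19 ± 0.39 (SE), and its groups overlapped.

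MIR519C had 19 and 18 counts in 2-D and 10 and 5 counts in 3-D. MIR512-2, whose reads can be shared with its copy MIR512-1, had 23 and 13 counts in 2-D and 5 and 3 counts in 3-D. Both gave a lower value in each 3-D library than in each 2-D library. MIR519B, in the group with seed AAGUGCA, stood at 0.639 and 0.389 CPM in 2-D and 0.195 and 0.279 CPM in 3-D. Over the alternatives, the lowest edgeR adjusted p was 0.450 for MIR519C, 0.110 for MIR512-2 and 0.187 for MIR519B.

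**Figure D4:**
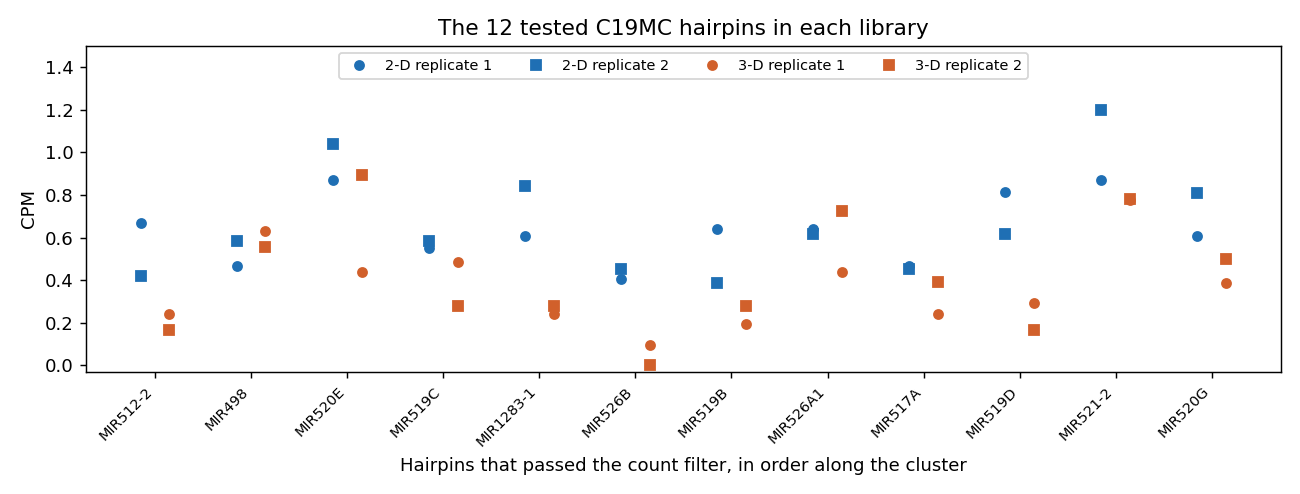
CPM of the 12 tested C19MC hairpins in each library, in order along the cluster (circles: replicate 1, squares: replicate 2, blue: 2-D, orange: 3-D). MIR526B had the lowest 3-D values, 0.0973 and 0 CPM, and MIR521-2 the highest 2-D value, 1.20 CPM.

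The miR-371 to miR-373 block was at the edge of detection. Its 4 hairpins together held 22 and 12 counts in 2-D and 5 and 4 counts in 3-D, or 0.639 and 0.389 against 0.243 and 0.223 CPM. The groups did not overlap, the log2 ratio of the means was -1.14, and the pooled ratio was 0.449 (exact 95% interval 0.189 to 0.956). Without 2-D replicate 1 the log2 ratio was -0.74. MIR371A had 9 and 9 counts in 2-D and 2 and 3 counts in 3-D. MIR372, with the miR-302 seed, had 7 and 3 counts in 2-D and 1 and 1 in 3-D. MIR373, with the same seed, had 6 and 0 counts in 2-D and 2 and 0 in 3-D, so its groups overlapped. The pooled ratio of MIR372 was 0.339 (0.0361 to 1.59) and that of MIR373 was 0.565 (0.0558 to 3.16).

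The long RNAs annotated over the hairpins were also lower in 3-D by their means, and none passed the test. The exons of the host gene ENSG00000269842 held 212 and 155 counts in 2-D and 91 and 74 counts in 3-D. Its log2 fold change was -0.39 ± 0.15 (SE, edgeR adjusted p = 0.147). ENSG00000269564, a long non-coding RNA over the miR-371 to miR-373 block, had 50 and 45 counts in 2-D and 24 and 12 counts in 3-D, with a log2 fold change of -0.64 ± 0.30 (SE, edgeR adjusted p = 0.240). ENSG00000269877, antisense to MIR371A and MIR372, had 106 and 69 counts in 2-D and 39 and 30 in 3-D, with a log2 fold change of -0.58 ± 0.22 (SE, edgeR adjusted p = 0.152). Counts on the minus strand inside C19MC, from 5 small nuclear RNA U6 loci, had a pooled ratio of 0.882 (exact 95% interval 0.642 to 1.20).

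Of the 35 genes within 200 kb of the window other than the members, 18 were tested and 0 were called by edgeR's quasi-likelihood test, with 5 at an unadjusted p below 0.05 and a median log2 fold change of 0.04. MYADM, a membrane protein gene downstream, came nearest at 0.13 ± 0.04 (SE, edgeR adjusted p = 0.0629). NLRP12, an inflammasome-related gene, had 458 and 395 counts in 2-D and 246 and 240 counts in 3-D, with a log2 fold change of -0.05.

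Other microRNA genes were chosen for comparison after the values of the members were seen. The 5 hairpins of the miR-302 cluster mostly carry the seed of MIR520A to MIR520E. These 5 hairpins had 37.8 and 36.9 CPM in 2-D and 39.7 and 40.4 CPM in 3-D. Their pooled ratio was 1.07 (exact 95% interval 1.003 to 1.14), which does not overlap the interval of C19MC. The 53 miRNA genes of the chromosome 14 cluster, also imprinted, had 27.9 and 28.8 CPM in 2-D and 22.1 and 25.4 CPM in 3-D, a pooled ratio of 0.834 (0.770 to 0.904). The 822 other miRNA genes with no more counts than MIR521-2 had a pooled ratio of 0.847 (0.812 to 0.883). All 1827 other miRNA genes, with those of high counts included, summed to 1112 and 841 CPM in 2-D and 536 and 746 CPM in 3-D, a pooled ratio of 0.644 (0.635 to 0.654) that lies within the interval of C19MC. The members held 1.45 and 1.89% of all miRNA counts in 2-D and 1.72 and 1.33% in 3-D, so as a share of miRNA counts the groups overlapped. These intervals cover counting error only, and the differences between the clusters were not tested over libraries.

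Among single stem cell microRNA loci, 9 of 31 were tested, 1 was called higher in 3-D and 3 lower. MIR302A rose, with 390 and 357 counts in 2-D and 296 and 273 counts in 3-D, a log2 fold change of 0.37 ± 0.09 (SE, edgeR adjusted p = 0.0197). The call was lost in DESeq2 (adjusted p = 0.152) and, in edgeR, without 2-D replicate 1 (adjusted p = 0.0872) or 2-D replicate 2 (adjusted p = 0.0593). Its host transcript MIR302CHG fell by 0.53 ± 0.05 on the log2 scale (SE, edgeR adjusted p = 5.0e-05), and MIR17HG, the host of miR-17 to miR-92a, fell by 0.26 ± 0.05 (SE, edgeR adjusted p = 0.00351). MIR205, a microRNA known from epithelia, had 3.43 and 3.70 CPM in 2-D and 1.70 and 1.06 CPM in 3-D and fell by 1.34 ± 0.22 on the log2 scale (SE, edgeR adjusted p = 0.00258). Its host gene MIR205HG did not pass the test, at 0.01 ± 0.04 (SE, edgeR adjusted p = 0.876). In 13 of the 31, which were MIR21 and the hairpins of the miR-17 and miR-106a clusters, all libraries were at 0 counts, so precursor counts could not be read there.

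Of the 22 genes of microRNA processing, all were tested, 2 were called higher in 3-D and 1 lower, with a median log2 fold change of 0.02. DROSHA, which cuts the hairpin from the primary transcript, had 5028 and 4336 counts in 2-D and 3591 and 3059 counts in 3-D and rose by 0.27 ± 0.03 on the log2 scale (SE, edgeR adjusted p = 0.00031). SRRT, which links capped RNA to the DROSHA step, rose by 0.21 ± 0.03 (SE, edgeR adjusted p = 0.00097), and RAN, the small GTPase of precursor export, fell by 0.12 ± 0.03 (SE, edgeR adjusted p = 0.0229). The call of RAN was lost in the edgeR likelihood ratio test (adjusted p = 0.220) and without 2-D replicate 1 (adjusted p = 0.196) or 2-D replicate 2 (adjusted p = 0.191). DGCR8, the partner of DROSHA, stood at 0.03 ± 0.04, and DICER1 at -0.03 ± 0.03 (SE, edgeR adjusted p = 0.764 and 0.588). The part of these differences in the lower hairpin counts was not tested.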

How the data were processed

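Total RNA from 4 Elf1 cultures, 2 in 2-D and 2 in 3-D, was depleted of ribosomal RNA and sequenced. The authors deposited raw read counts per gene for each library. Per the labels and the submitters' processing notes, reads were trimmed with Trim Galore 0.6.3, aligned to hg38 with HISAT2 2.1.0 and counted with featureCounts 1.6.4 on GENCODE 30, and the authors compared conditions with DESeq2 2.11.40.6. Settings for strand and multiply mapped reads are not given in the sources used here. A table of normalized values was not used. From the counts, 60295 of 60564 genes were matched to GENCODE 44, and unmatched genes held 0.122% of the counts.

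Counts were fitted with edgeR 4.0.16 (R 4.3.3): TMM scaling, the default count filter, the quasi-likelihood test on condition alone over 22555 genes and Benjamini-Hochberg adjustment, called at 0.05. Standard errors are the log2 fold change over the root of F. Sums over hairpins are descriptions without a test, with exact 95% intervals on pooled counts that cover counting error only. A count of 1 stood for 0.0296 to 0.0547 CPM (counts scaled to a common library total), which sets the precision of single hairpins. Copies were searched with blastn 2.17.0. The fit was tested on simulated data, with changes placed only in genes that passed the count filter. That test therefore says nothing about hairpins below the filter. Alternatives were a likelihood ratio test, DESeq2 1.42.0, other scalings and filters, a replicate block and leaving out each library. The values named by rule were the 10 members with the most counts, every member called, and the miR-371 block. MIR520F, MIR524, MIR525, MIR518D and MIR520H, the seed groups, position groups and other clusters, were picked after their values were seen. The members and lists were chosen with earlier results of these data known.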

Additional observations from a re-analysis of the deposited data

How the results depend on the processing

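The log2 ratio of the C19MC sum stayed between -0.80 and -0.69 and that of the miR-371 to miR-373 sum between -1.45 and -0.74 in every alternative run. The number of members called was 3 by the likelihood ratio test, 2 with library size only, 4 without a filter, 0 of 2 tested with at least 10 counts in every library, and 0 to 1 when each library was left out. DESeq2 gave no adjusted p for any member. The median log2 fold change of the tested members was -0.85 in DESeq2, -0.81 without a filter and -0.11 with at least 10 counts in every library, and ran from -1.04 to -0.50 when each library was left out. MicroRNA processing genes called ran from 2 to 6 and genes around the cluster called from 0 to 1 when each library was left out, where MYADM was the gene called. The latter count was also 1 without a filter and 1 with a replicate block. DESeq2 called 2 of the other stem cell microRNA loci. Over all genes 1782 were called (1024 higher and 758 lower), 795 by DESeq2, 1139 by the likelihood ratio test, 974 to 2643 when each library was left out, and 2393 with library size only (514 higher and 1879 lower). With the replicate block 2167 genes were called over all genes and 1 member, and deviations of libraries with the same number correlated at -0.0154 over 19791 genes, so the numbers were not used as pairs. Log2 fold changes of named genes that turned direction were DDX5 (-0.025), ZNF331 (-0.010), LIN28A (-0.064) and MIR205HG (-0.051) with library size only, LIN28A without a filter (-0.0012) and with at least 10 counts in every library (-0.0068), and, when each library was left out, LIN28A (-0.036 to 0.039), MIR205HG (-0.0080 to 0.037) and MIR526A1 (-0.51 to 0.21). Of the other values of named genes, 224 kept direction and side of the threshold, 8 gained a call and 7 lost one. Leaving each library out of the sums of the seeds AAAGUGC and AAGGCGC was added after seeing the data. The depth limits single hairpins, of which 38 of 50 were not tested.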
